A study of Penicillium oxalicum with 9 samples.

Results

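The comparison described here set the deletion mutant ΔcxrA;G418R+ against its background strain Δku70;hphR+, shortened to ΔcxrA and Δku70, in the filamentous fungus Penicillium oxalicum HP7-1 growing on cellulose. It holds 6 of the 9 RNA-sequencing libraries of the study, 3 of ΔcxrA and 3 of Δku70, chosen by strain and replicate number in the sample titles and given as biological replicates. In Δku70 the gene ku70, which serves end joining of broken DNA, was replaced by a hygromycin resistance marker, so that targeted integration becomes efficient; the labels give this strain as WT. ΔcxrA was made in Δku70 and therefore lacks both ku70 and cxrA, and it carries a G418 resistance marker in place of cxrA that Δku70 does not have. An effect of this marker cannot be told apart from that of the deletion. Spores of both strains were taken from potato-dextrose agar kept at 28°C, the mycelium was pre-grown with 1.0% glucose for 24 h, and it was moved to 2% Avicel, a microcrystalline cellulose, for another 24 h before total RNA was extracted. The remaining 3 libraries came from a strain labelled as a knockout of POX03070. They entered only the scaling factors, the choice of features tested and the estimate of the spread between replicates. Whether the libraries of a strain came from more than 1 transformant is not given in the sources used here.

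CxrA is a transcription factor of the Zn2Cys6 class, a fungal family that binds DNA through a zinc cluster, and in P. oxalicum it is known as an activator of cellulase and xylanase production. Fungi that live on cellulose secrete cellobiohydrolases, which work along the chains from their ends, endoglucanases, which cut within them, and lytic polysaccharide monooxygenases, which cleave crystalline surfaces by oxidation. β-Glucosidases then split the released cellobiose into glucose, and sugar transporters carry the products into the cell. The genes of these proteins are usually induced together on cellulose and repressed by glucose.

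The authors deposited expression as FPKM, which sets the number of sequenced fragments relative to the length of a gene and the depth of a library. FPKM were divided by a factor for each library, found as the median of ratios over the features above 0 in all libraries, and are here called scaled FPKM. The factors lay between 1.23 and 1.28 in ΔcxrA and between 0.909 and 0.964 in Δku70. Between 10202 and 10270 features were above 0 in a ΔcxrA library and between 9875 and 9971 in a Δku70 library. POX_a00763, taken as cxrA because it is a Zn2Cys6 gene whose RefSeq length equals the cxrA product in the study's primer list, was at 122, 133 and 94.1 scaled FPKM in Δku70 and listed at 0 in each ΔcxrA library. The labels of the 6 libraries thus matched the deleted gene. The gene ku70 was not identified in the tables used here. Some libraries of a strain stood apart at 2 very abundant loci. A locus without identifier was at 5.26, 38212 and 5.28 scaled FPKM in Δku70 and 13133, 14637 and 6.37 in ΔcxrA, and POX_u09934 at 219.5, 14476 and 198 scaled FPKM in Δku70 and 4969, 6716 and 189 in ΔcxrA. Δku70 replicate 2 and ΔcxrA replicates 1 and 2 were thus high at both loci and the other 3 libraries low, and neither locus was called. Results that changed when 1 of these libraries was left out are given with their values.

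Loss of cxrA went with a broad change of the transcriptome in both directions. Of 9363 annotated genes tested, 1365 were called higher and 1300 lower in ΔcxrA, which are 14.6% and 13.9% of them. A gene was called at an adjusted p under 0.05 (limma, Benjamini-Hochberg over all 10578 features tested) with an absolute log2 fold change over 1. All fold changes are of log2(scaled FPKM + 0.1), a scale on which changes of weakly expressed genes come out too small. Without the scaling the median annotated gene moved from 0.01 to 0.42, and 2246 genes were called higher and 849 lower, so the division by direction rested on it. In RNA from whole mycelium, fewer cells of a type and less RNA per cell cannot be told apart.

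The sizes and levels of the 2 directions differed. Falls of more than 5 on the log2 scale were found in 127 genes, and rises of this size in 68. At smaller bounds this was not so, with 534 falls and 595 rises of more than 2, and 289 falls and 302 rises of more than 3. Calls of a fall were more frequent at high levels, and calls of a rise at low ones. Among the 139 genes with a mean of at least 1000 scaled FPKM over the 6 libraries, 52 were called lower and 17 higher. Among the 1591 genes with a mean between 1 and 10, by contrast, 177 were called lower and 491 higher. Of the 50 genes of highest level in Δku70, 31 were called lower in ΔcxrA and 1 higher, and of the 50 of highest level in ΔcxrA, 6 were called lower and 17 higher; a choice by the level in 1 strain favours these directions. The lists have 23 genes in common.

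**Figure D1:**
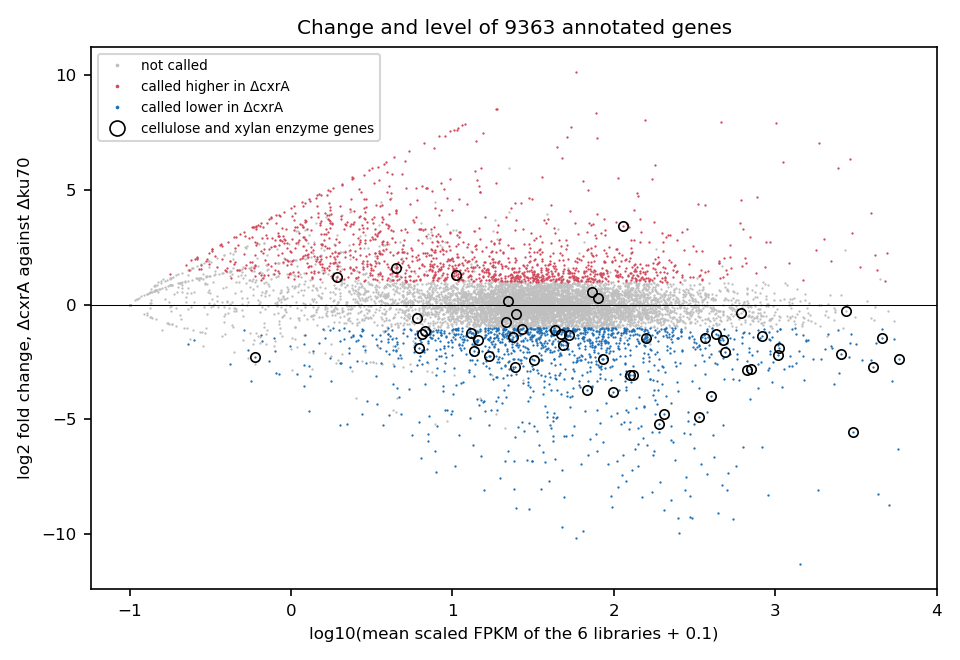
Change and level of the 9363 annotated genes tested. The x axis is log10 of the mean scaled FPKM of the 6 libraries plus 0.1, the y axis the log2 fold change of ΔcxrA against Δku70, and each point a gene, coloured by call. Open circles mark the genes of cellulose and xylan enzymes, most of which lie below 0. The straight upper edge at low levels holds genes listed at 0 or close to it in Δku70.

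The genes of plant polysaccharide enzymes were mostly lower in ΔcxrA. Of 85 such genes tested, 53 were called lower and 13 higher, where 13.9% and 14.6% of all annotated genes were, and their median log2 fold change was -1.37, beside 0.01 over all annotated genes. The 3 ΔcxrA libraries lay below the 3 Δku70 libraries for 57 of the 85 and above them for 16, where 35.5% and 34.8% of all annotated genes did so. The members were found by the protein annotations of the study's lists of changed genes, and the 66 called members are those annotated in its list for ΔcxrA. These counts are thus no independent evidence of a direction, and they describe which enzymes moved and by how much. The same limit, and the same shares of all annotated genes, apply to the counts for each kind of enzyme below.

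Among the genes for attack on cellulose itself, 14 of 15 genes for cellobiohydrolases, endoglucanases and monooxygenases were called lower. The cellobiohydrolase gene POX_d05671, the third most abundant annotated transcript of Δku70, was at 8612, 7397 and 13291 scaled FPKM in Δku70 and 1441, 1732 and 2409 in ΔcxrA. Its highest ΔcxrA library lay far below its lowest Δku70 library (log2 fold change -2.38, SE 0.28, adjusted p = 1.2e-04). The second cellobiohydrolase gene, POX_d04867, was at 6193, 5807 and 9094 scaled FPKM in Δku70 and 872, 995 and 1272 in ΔcxrA, again without overlap (log2 fold change -2.74).

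The 2 largest falls among the 25 genes of cellulose enzymes were in lytic polysaccharide monooxygenase genes. Expression of cel61A (POX_b02315) was 5178, 4161 and 8441 scaled FPKM in Δku70 and 98.1, 118 and 151 in ΔcxrA. This was the largest fall among all 85 polysaccharide enzyme genes (log2 fold change -5.55, SE 0.26, adjusted p = 6.5e-07), and the spread within either strain was small beside it. POX_g09366, annotated as the same kind of enzyme, was at 581, 522 and 848 scaled FPKM in Δku70 and 15.2, 22.8 and 28.8 in ΔcxrA (log2 fold change -4.88). The third gene of this class, POX_c04131, was at 40.1, 41.2 and 23.1 scaled FPKM in Δku70 and 13.0, 12.4 and 13.0 in ΔcxrA. Its libraries did not overlap either, but its log2 fold change was only -1.39, and it was -0.98 without the scaling, short of the threshold.

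Endoglucanases, which open the chains for the cellobiohydrolases, differed widely in how far they fell. Of the 10 genes, which include 1 for a xyloglucan-specific enzyme, 9 were called lower, with a median log2 fold change of -1.68 over the 10. The steepest falls were in genes of middling level. POX_e06915 was at 178, 144 and 229.8 scaled FPKM in Δku70 and 10.1, 12.7 and 16.4 in ΔcxrA (log2 fold change -3.81), and POX_b02748 at 99.5, 112 and 168 scaled FPKM in Δku70 and 7.30, 9.61 and 11.2 in ΔcxrA (log2 fold change -3.72). In both genes no ΔcxrA library reached the lowest Δku70 library. The most abundant endoglucanase gene, POX_a00764, lies next to cxrA on chromosome I and was at 6719, 6102 and 7461 scaled FPKM in Δku70 and 1982, 2354 and 3090.1 in ΔcxrA. It was called lower (log2 fold change -1.47, SE 0.22, adjusted p = 5.0e-04), although under quantile normalization its log2 fold change was -0.93, short of the threshold. POX_a00030 and POX_c03950, the next in level, had log2 fold changes of -2.21 and -1.88, and POX_d04884 one of -1.37, which fell short of 1 in size without the scaling, at -0.96, and under quantile normalization, at -0.92.

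The exception was eg1 (POX_d04883). Its values were 676, 592 and 813 scaled FPKM in Δku70 and 488, 501 and 600.4 in ΔcxrA, and the strains overlapped. Its log2 fold change of -0.38 (adjusted p = 0.11, limma) was not called, and its sign turned to 0.03 without the scaling and to 0.07 under quantile normalization. POX_d04883 and POX_d04884 carry successive identifiers, and 1 of them was called while the other was not; whether their changes differ was not tested.

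**Figure D2:**
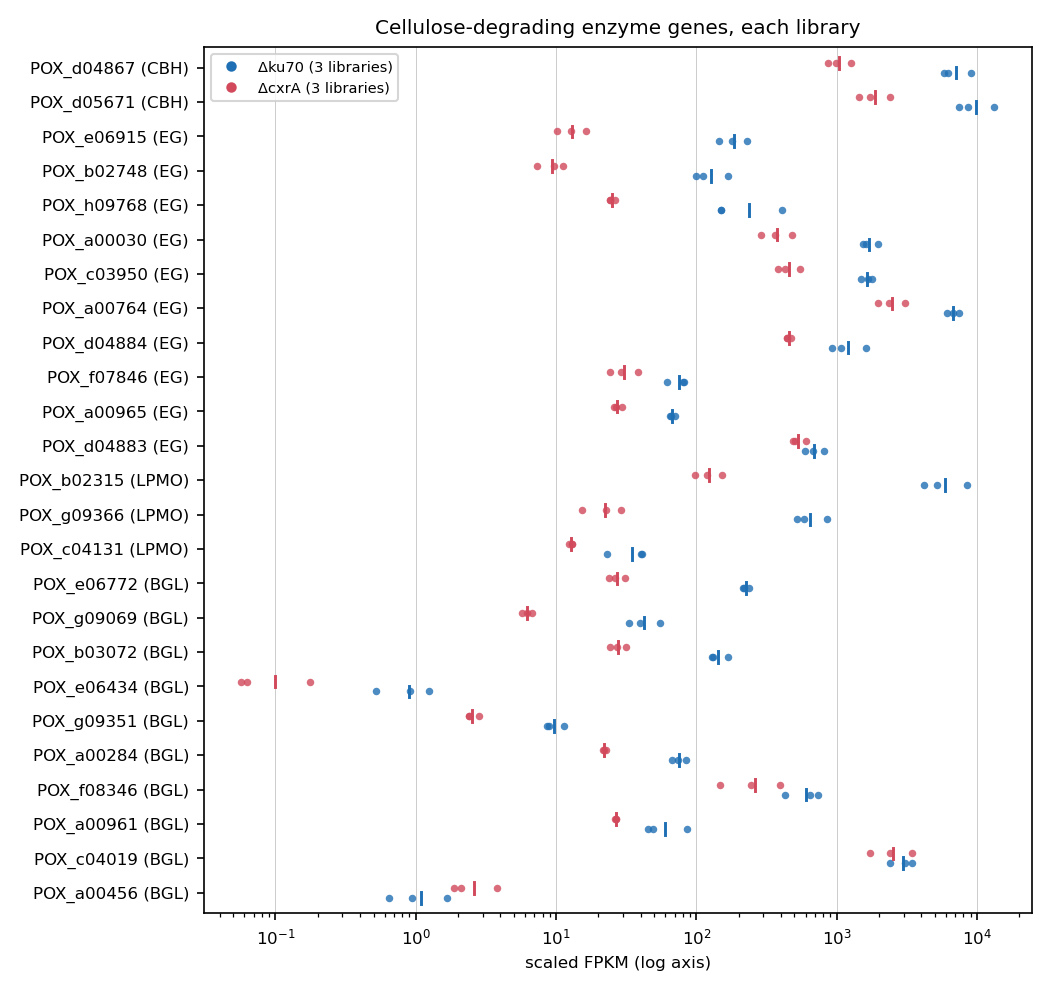
Scaled FPKM of the 25 genes for cellulose-degrading enzymes in each library. The x axis is logarithmic, points are libraries, blue for Δku70 and red for ΔcxrA, and short vertical lines are the means of the 3 libraries. CBH is cellobiohydrolase, EG endoglucanase, LPMO lytic polysaccharide monooxygenase and BGL β-glucosidase. The strains stand apart in all genes but POX_d04883 and POX_c04019, and ΔcxrA lies above Δku70 only in POX_a00456.

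β-Glucosidases, which complete the release of glucose, were called lower in 8 of 10 genes and higher in 1. The gene bgl1 (POX_e06772) was at 216, 237 and 219 scaled FPKM in Δku70 and 23.7, 26.2 and 31.2 in ΔcxrA. The 2 strains were far apart, with replicates close together (log2 fold change -3.06, SE 0.12, adjusted p = 2.7e-07). POX_b03072 and POX_g09069 were lower as well, with log2 fold changes of -2.36 and -2.73. POX_f08346 was more variable, at 650.1, 733 and 427 scaled FPKM in Δku70 and 147, 243 and 393 in ΔcxrA. Its ΔcxrA libraries still all lay below Δku70 (log2 fold change -1.28), but without the scaling it was -0.87, under quantile normalization -0.93 and without ΔcxrA replicate 1 also -0.93, none of them past the threshold.

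The β-glucosidase gene with by far the most transcript, POX_c04019, was not among those called. It was at 3089.9, 3419.5 and 2415 scaled FPKM in Δku70 and 1719.8, 2383 and 3459 in ΔcxrA, so that the ranges of the strains overlapped. Its log2 fold change was -0.28 (SE 0.26, adjusted p = 0.37, limma), and it was 0.13 without the scaling and 0.45 under quantile normalization. The summed FPKM of the 10 β-glucosidase genes made up 0.233%, 0.319% and 0.461% of all FPKM in the ΔcxrA libraries and 0.376%, 0.411% and 0.305% in the Δku70 libraries, which overlap. POX_a00456 was called higher, from 1.68, 0.935 and 0.643 to 2.10, 1.88 and 3.76 scaled FPKM (log2 fold change 1.21). At this low level the call was lost with a pseudocount of 1, under quantile normalization, and without ΔcxrA replicate 3, Δku70 replicate 2 or Δku70 replicate 3, where the log2 fold change was between 0.42 and 1.15.

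Xylan is the hemicellulose that accompanies cellulose in plant cell walls. It is not named among the carbon sources of these cultures, and whether the Avicel held any is not given in the sources used here. Genes of xylan enzymes were expressed in Δku70. Of 27, 18 were called lower in ΔcxrA and 3 higher, where 13.9% and 14.6% of all annotated genes were, and 21 are in the study's list for ΔcxrA. Of 9 genes for endo-1,4-β-xylanases, which cut the xylan backbone, 8 were called lower, with a median log2 fold change of -2.05. The most abundant, POX_g08543, was at 4058, 3791 and 4704 scaled FPKM in Δku70 and 799, 922 and 1106 in ΔcxrA, with no overlap (log2 fold change -2.16). The gene xyn11A (POX_a01871) was at 1170.3, 1072 and 1477 scaled FPKM in Δku70 and 143, 169 and 232 in ΔcxrA. Every ΔcxrA value was far below every Δku70 value (log2 fold change -2.79, SE 0.19, adjusted p = 5.1e-06). POX_e06720 had similar levels and a log2 fold change of -2.83.

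The steepest fall of a xylanase gene was in POX_c03490, at 381, 304 and 436 scaled FPKM in Δku70 and 11.5, 10.4 and 8.00 in ΔcxrA (log2 fold change -5.22, SE 0.18, adjusted p = 1.4e-07). It lies beside the α-L-arabinofuranosidase genes POX_c03491 and POX_c03492, whose products remove arabinose side chains from xylan. POX_c03492 was at 674, 575 and 998 scaled FPKM in Δku70 and 52.7, 47.7 and 40.0 in ΔcxrA, with a log2 fold change of -3.97, and POX_c03491 had one of -2.40. These 3 genes with successive identifiers on chromosome III were thus all called lower, and in none of them did the strains overlap. POX_f07706, the xylanase gene not called, was at 27.2, 34.3 and 19.5 scaled FPKM in Δku70 and 13.9, 15.4 and 17.2 in ΔcxrA, which did not overlap, but its log2 fold change was -0.77.

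The 18 genes for enzymes of xylan side chains and oligomers were less uniform, with 10 called lower, 3 higher and 5 not called. The feruloyl esterase gene POX_d06116, whose product frees ferulic acid from xylan, was at 343, 334 and 506 scaled FPKM in Δku70 and 17.2, 14.8 and 11.1 in ΔcxrA (log2 fold change -4.76). All 3 acetyl xylan esterase genes were called lower, by 1.24 to 1.56 on the log2 scale, POX_a00713 only while Δku70 replicate 3 was included, since it was at -0.98 without it. Against this direction went a β-xylosidase gene, POX_a00185, whose product releases xylose from short xylan chains. It was at 26.9, 21.5 and 11.1 scaled FPKM in Δku70 and 256, 219 and 151 in ΔcxrA, so that every ΔcxrA library lay above every Δku70 library (log2 fold change 3.45, SE 0.32, adjusted p = 3.2e-05). The α-L-arabinofuranosidase gene POX_a00012 and the feruloyl esterase gene POX_a01259 rose as well, with log2 fold changes of 1.29 and 1.61.

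Mannan and galactan enzymes followed the cellulases in part, with 4 of 7 genes called lower. The endo-1,4-β-mannanase gene POX_b01946, one of the most abundant enzyme transcripts, was at 4716, 5342 and 4379.9 scaled FPKM in Δku70 and 1092, 1426 and 2002 in ΔcxrA, with separate ranges (log2 fold change -1.72). The α-galactosidase gene POX_e06536, whose product removes galactose side chains, was at 183, 177 and 329 scaled FPKM in Δku70 and 9.74, 9.64 and 8.00 in ΔcxrA (log2 fold change -4.58, SE 0.23, adjusted p = 1.1e-06). The strains were far apart in this gene, while the β-mannosidase gene POX_b01970, at 674, 714 and 518 scaled FPKM in Δku70 and 341, 472 and 663 in ΔcxrA, overlapped between strains and was not called, with a log2 fold change of -0.41 that turned to 0.03 under quantile normalization.

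Pectin and arabinan enzymes were divided, with 9 of 26 genes called higher, 9 lower and 8 not called, and a median log2 fold change of 0.15. The polygalacturonase gene POX_d04874, whose product cuts the smooth regions of pectin, was at 35.8, 39.9 and 74.6 scaled FPKM in Δku70 and 354, 369 and 384 in ΔcxrA. It was by far the most abundant pectinase transcript of ΔcxrA and the strains did not overlap (log2 fold change 2.96, SE 0.26, adjusted p = 2.3e-05). Rhamnogalacturonan endolyases cleave the branched regions of pectin, and of their 3 genes POX_d05147 and POX_c03480 rose, by 3.54 and 2.74 on the log2 scale, at levels below 10 scaled FPKM. The polygalacturonase gene POX_b03463 and the rhamnogalacturonan acetylesterase gene POX_e07312 both had log2 fold changes of 2.83, and the pectate lyase gene POX_h09413 was at 10.2, 10.0 and 8.55 scaled FPKM in Δku70 and 35.6, 29.3 and 27.5 in ΔcxrA (log2 fold change 1.67). Among those that fell, the endo-1,5-α-L-arabinosidase gene POX_a01003 was at 11.9, 15.3 and 14.2 scaled FPKM in Δku70 and 0.289, 0.448 and 0.432 in ΔcxrA (log2 fold change -4.84), and the rhamnogalacturonan hydrolase genes POX_b02031 and POX_a00706 had log2 fold changes of -2.50 and -1.84.

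The share of all transcripts that fell to these enzymes was lower in every ΔcxrA library. The 85 polysaccharide enzyme genes together held 4.75%, 4.41% and 6.02% of all FPKM in the Δku70 libraries and 1.50%, 1.76% and 2.28% in the ΔcxrA libraries. Of this, the 2 cellobiohydrolase genes held 1.31%, 1.16% and 1.97% in Δku70 and 0.273%, 0.317% and 0.427% in ΔcxrA. The share of the 3 monooxygenase genes went from 0.513%, 0.414% and 0.818% to 0.0149%, 0.0179% and 0.0224%. For the pectin and arabinan enzymes the shares were 0.0360%, 0.0344% and 0.0689% in Δku70 and 0.0895%, 0.0899% and 0.0915% in ΔcxrA, higher in each ΔcxrA library. The 7 polygalacturonase genes, POX_d04874 among them, held 0.0077%, 0.0071% and 0.0127% in Δku70 and 0.0516%, 0.0525% and 0.0535% in ΔcxrA. The higher share was thus mainly theirs and not one of the whole list. These shares are of the deposited FPKM and do not depend on the scaling.

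The replicates of a strain differed in the same direction across many of these genes. Of the 53 enzyme genes called lower, Δku70 replicate 3 was the highest of its strain in 41 and Δku70 replicate 2 the lowest in 30. Within ΔcxrA, replicate 3 was the highest in 33 and replicate 1 the lowest in 35. The number called lower stayed between 50 and 53 when 1 library was left out.

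**Figure D3:**
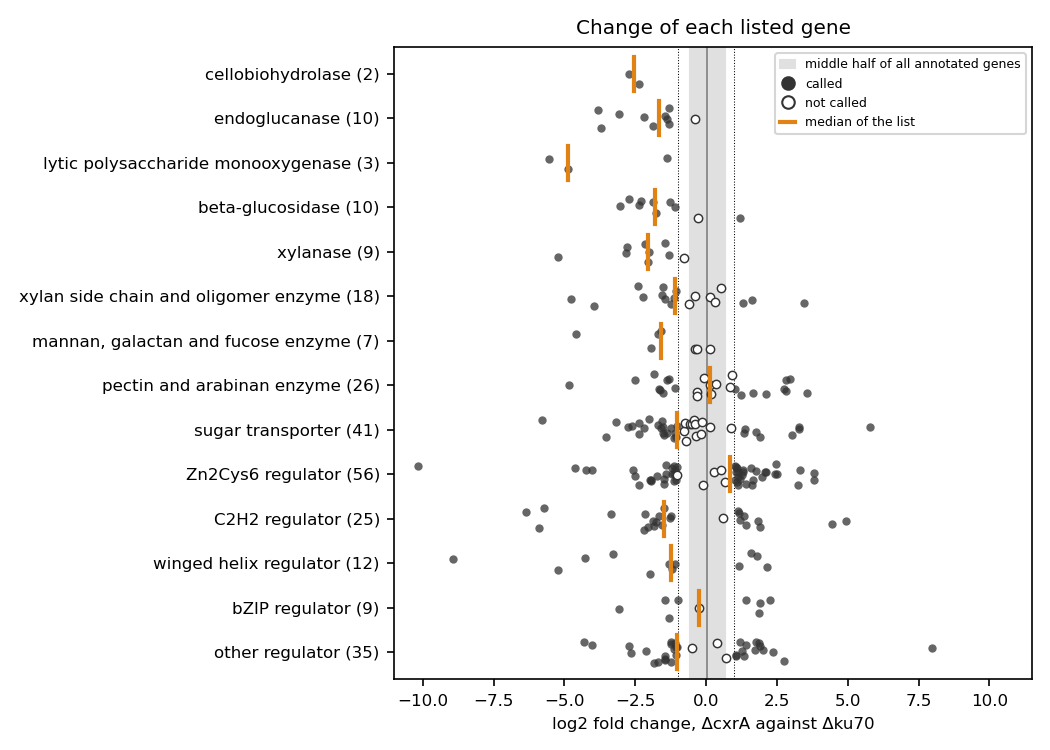
Log2 fold change of ΔcxrA against Δku70 for each gene of 14 lists. Points are genes, filled where called and open where not, orange lines are the medians of the lists, the grey band holds the middle of the distribution of all annotated genes, between its quartiles, dotted lines mark -1 and 1, and the number of genes is in parentheses. Lists of cellulose and xylan enzymes lie to the left, with monooxygenases at a median of -4.88, while pectin enzymes and regulators spread to both sides.

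Sugar transporters, which take up cellodextrins and simple sugars, were called lower in 21 of 41 genes and higher in 8, where 13.9% and 14.6% of all annotated genes were. Their median log2 fold change was -1.04. Together they held 1.28%, 1.30% and 1.20% of all FPKM in Δku70 and 0.553%, 0.639% and 0.809% in ΔcxrA. The most abundant, POX_c04047, was at 7962, 8540.1 and 7701 scaled FPKM in Δku70 and 2258, 2731 and 3698 in ΔcxrA. It was the sixth most abundant annotated transcript of Δku70 and was lower in every ΔcxrA library (log2 fold change -1.51, SE 0.23, adjusted p = 5.2e-04), although under quantile normalization its log2 fold change was -0.98, short of the threshold. POX_c04185, beside the xylanase gene POX_c04184, was at 2359, 2426 and 2152 scaled FPKM in Δku70 and 622, 767 and 995 in ΔcxrA (log2 fold change -1.57), and POX_f07452 at 367, 386 and 388 scaled FPKM in Δku70 and 84.1, 94.9 and 102 in ΔcxrA (log2 fold change -2.02). All 3 are annotated as sugar/inositol transporters, and which sugars they carry is not given by the annotation.

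The largest fall among transporters was in POX_c04515, which was at 43.9, 45.2 and 55.2 scaled FPKM in Δku70 and 0.852, 0.872 and 0.617 in ΔcxrA (log2 fold change -5.78, SE 0.19, adjusted p = 1.2e-07). POX_e06202 went in the same direction, from 2.00, 1.52 and 2.82 to 0.141, 0.0407 and 0.0881 scaled FPKM. By contrast POX_e06200, with a nearby identifier, was at 0.861, 0.990 and 1.40 scaled FPKM in Δku70 and 12.3, 9.83 and 11.6 in ΔcxrA and rose (log2 fold change 3.28). The largest rise was in POX_c04123, which was close to 0 in Δku70, at 0.0735, 0.0550 and 0 scaled FPKM, and at 7.65, 7.74 and 7.43 in ΔcxrA. These transporter annotations come from the same lists of changed genes as those of the enzymes, and 28 of the 41 were in the list for ΔcxrA. The counts of transporter calls are thus no independent evidence of a direction either.

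Regulator genes moved in both directions. Of 137 genes counted as regulators by their annotations alone, 59 were called higher and 68 lower, where 14.6% and 13.9% of all annotated genes were. The gene cxrA itself is among the 68. Because 128 of the 137 are in the study's list of genes changed in ΔcxrA, that nearly all were called follows from how the list was made, here and in each class of regulators. Together they held 0.914% to 0.952% of all FPKM in Δku70 and 0.794% to 0.811% in ΔcxrA. This share was lower in every ΔcxrA library, but differed less between the strains than that of the enzymes. The 12 winged helix genes among them held 0.313%, 0.289% and 0.273% in Δku70 and 0.0789%, 0.0794% and 0.084% in ΔcxrA. Regulators outside the larger classes held more in each ΔcxrA library, at 0.157%, 0.170% and 0.163% in Δku70 and 0.294%, 0.280% and 0.268% in ΔcxrA. The lower share was thus mainly that of the winged helix genes and not one of the whole list.

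Of 3 genes taken as regulators of conidiation, the formation of asexual spores, 2 were called lower and 1 was not called. In Aspergillus, BrlA is the central activator of conidiophore development, FlbD acts before it and AbaA after it. The gene taken as brlA, POX_c03558, was at 145, 148 and 172 scaled FPKM in Δku70 and 1.91, 1.43 and 2.04 in ΔcxrA. No ΔcxrA library came near a Δku70 library (log2 fold change -6.37, SE 0.36, adjusted p = 1.9e-06). The gene taken as flbD, POX_e07032, was at 140.1, 203 and 167 scaled FPKM in Δku70 and 8.83, 7.98 and 8.51 in ΔcxrA (log2 fold change -4.30). The gene taken as abaA, POX_e06958, went the other way, at 13.3, 15.9 and 13.3 scaled FPKM in Δku70 and 20.1, 18.1 and 17.3 in ΔcxrA. Its strains did not overlap, but with a log2 fold change of 0.39 and an adjusted p of 0.052 (limma) it was not called. These 3 names rest on the annotated domain types, C2H2, Myb and TEA/ATTS, which 25, 4 and 1 of the listed genes carry. For brlA and flbD the type alone does not single out a gene, and these 2 names are uncertain. POX_c03558 and POX_e07032 had the largest falls among the listed genes of their types. Conidiation genes mark cells other than vegetative mycelium, and their part in the other differences was not tested.

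Among C2H2 zinc finger genes, 15 of 25 were called lower and 9 higher, and 24 of the 25 are in the study's list for ΔcxrA. POX_c04377 was at 403, 431 and 502 scaled FPKM in Δku70 and 7.74, 7.50 and 6.99 in ΔcxrA, with replicates within a narrow range in both strains (log2 fold change -5.89, SE 0.40, adjusted p = 5.6e-06). POX_b02461 was at 594, 596 and 601 scaled FPKM in Δku70 and 161, 172 and 198 in ΔcxrA (log2 fold change -1.76). The most abundant gene of the class in ΔcxrA, POX_g08654, was at 299, 286 and 290.3 scaled FPKM in Δku70 and 1012, 1044 and 1019 in ΔcxrA, 3.51-fold higher and almost without spread (log2 fold change 1.81, adjusted p = 4.6e-07, limma). Its neighbour POX_g08653, also of the C2H2 class, had a log2 fold change of 1.17. The largest rises of the class, in POX_c04334 and POX_d06068, were in genes of very low level in Δku70, and POX_c04334, with a log2 fold change of 4.94, was not called without ΔcxrA replicate 3 or Δku70 replicate 1 (4.71 and 3.86, adjusted p = 0.051 and 0.059, limma).

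Genes annotated with a winged helix repressor DNA-binding domain were called lower in 8 of 12 and higher in 4. All 12 are in the study's list of genes changed in ΔcxrA. The annotation names a domain, and whether these proteins bind DNA or repress genes is not given by it. POX_c04517 was at 373, 374 and 486 scaled FPKM in Δku70 and 1.32, 0.994 and 0.272 in ΔcxrA, and nearly all its transcript was lost (log2 fold change -8.93, SE 0.45, adjusted p = 9.7e-07). POX_e06154 was at 1026, 809 and 938 scaled FPKM in Δku70 and 23.9, 24.8 and 24.5 in ΔcxrA (log2 fold change -5.23), and POX_a00746 at 1222, 1197 and 829.8 scaled FPKM in Δku70 and 97.2, 108 and 123 in ΔcxrA (log2 fold change -3.29). None of these 3 overlapped between strains, and each lies in a run of neighbouring genes called lower. The homeobox gene POX_d05597 was at 346, 351 and 352 scaled FPKM in Δku70 and 54.8, 50.8 and 51.4 in ΔcxrA, with little spread in either strain (log2 fold change -2.74), and POX_f08102 of the same class fell by 4.01 on the log2 scale.

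The largest rise of any regulator gene was in POX_g09022, annotated as the mating-type protein MAT alpha 1, a class of proteins that sets mating identity in ascomycetes. It was at 4.01, 4.63 and 2.49 scaled FPKM in Δku70 and 959, 917 and 885 in ΔcxrA. It thus went from a trace to one of the most abundant regulator transcripts of ΔcxrA (log2 fold change 7.96, SE 0.23, adjusted p = 8.4e-08). The DHHC zinc finger gene POX_a00205, placed among regulators by its annotation alone, was at 36.2, 35.8 and 40.9 scaled FPKM in Δku70 and 240.0, 244 and 273 in ΔcxrA (log2 fold change 2.74). POX_c03717, annotated as a negative transcriptional regulator, was at 89.2, 72.5 and 62.5 scaled FPKM in Δku70 and 287, 265 and 199.6 in ΔcxrA (log2 fold change 1.74). In both genes all ΔcxrA libraries were above all Δku70 libraries.

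**Figure D4:**
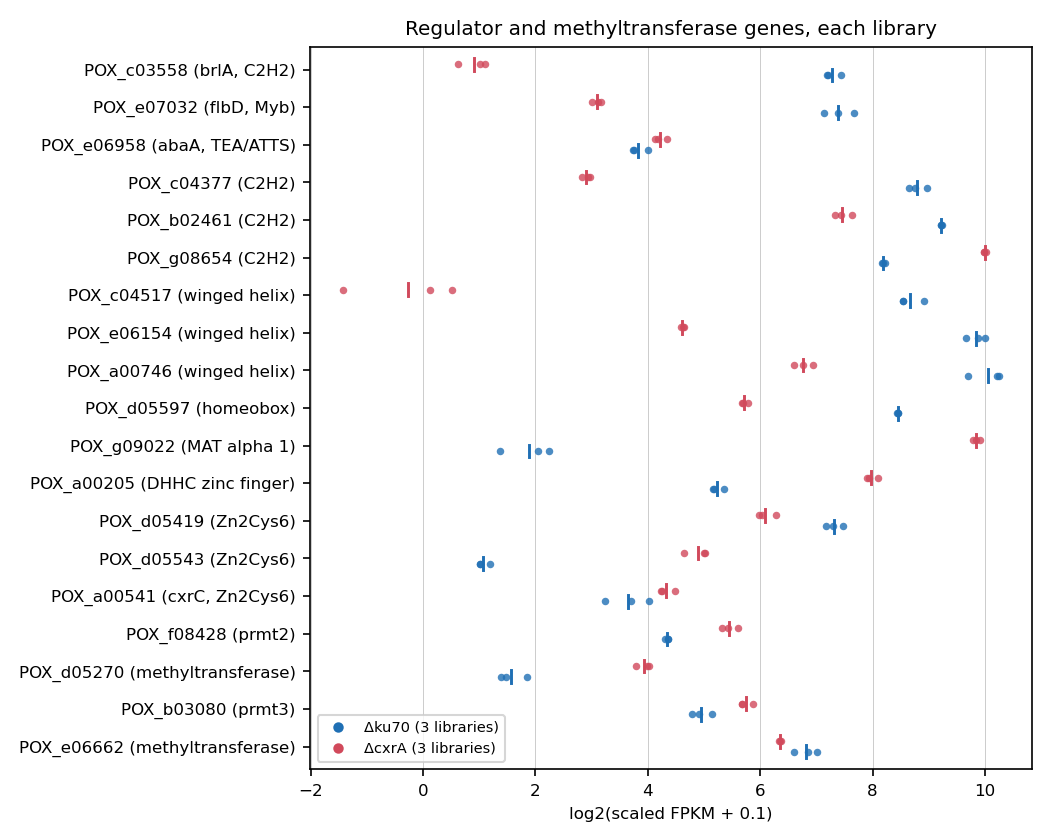
Expression of regulator and arginine methyltransferase genes in each library, as log2(scaled FPKM + 0.1). Points are libraries, blue for Δku70 and red for ΔcxrA, and short vertical lines are the means of the 3 libraries. The gene taken as brlA, POX_c04377 and POX_c04517 lie far lower in ΔcxrA, POX_g09022 far higher, and the points of the gene taken as abaA lie close together.

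The class to which CxrA belongs, Zn2Cys6, had 56 genes tested, of which 28 were called higher and 23 lower, with cxrA among the lower, and 52 of the 56 are in the study's list for ΔcxrA. Without the scaling 29 were called higher and 14 lower. Most were at low levels and moved by less than the genes above. Of the more abundant members, POX_a00747, which lies in the run of genes around cxrA, had a log2 fold change of -1.41, and POX_d05419 one of -1.22; both fell short of the threshold without the scaling. POX_d05821 was listed at 0 in each ΔcxrA library and at 2.74, 1.99 and 2.39 scaled FPKM in Δku70. POX_d05543 rose, at 1.92, 2.19 and 1.91 scaled FPKM in Δku70 and 31.8, 32.3 and 25.0 in ΔcxrA (log2 fold change 3.81), and POX_b02666 was listed at 0 in each Δku70 library and at 1.35, 1.26 and 1.29 scaled FPKM in ΔcxrA. The gene cxrC (POX_a00541), known as a repressor of cellulase genes, was at 12.9, 16.2 and 9.32 scaled FPKM in Δku70 and 18.8, 19.1 and 22.2 in ΔcxrA; its libraries did not overlap, and its log2 fold change of 0.67 was not called, but was 1.08 and called without the scaling.

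Protein arginine methyltransferases add methyl groups to arginine residues of other proteins, and the study asked how they act on CxrA. The gene prmt2 (POX_f08428) was at 20.4, 20.5 and 19.7 scaled FPKM in Δku70 and 48.5, 42.8 and 40.1 in ΔcxrA, which is a rise past both thresholds (log2 fold change 1.11, SE 0.10, adjusted p = 2.2e-05). POX_d05270 rose more, at 2.51, 2.66 and 3.51 scaled FPKM in Δku70 and 16.1, 13.7 and 15.7 in ΔcxrA (log2 fold change 2.36, SE 0.25, adjusted p = 7.4e-05). The gene prmt3 (POX_b03080) was at 35.1, 27.4 and 30.2 scaled FPKM in Δku70 and 51.3, 51.2 and 58.2 in ΔcxrA. All its ΔcxrA values were above those of Δku70, but its log2 fold change of 0.80 was not called, and it was 1.21 and called without the scaling. POX_e06662 was at 129, 97.5 and 115 scaled FPKM in Δku70 and 80.5, 81.7 and 82.9 in ΔcxrA (log2 fold change -0.47), and was not called. The aspartic protease gene pepA (POX_d05452), whose locus served to insert constructs in other strains of the study, was at 549, 476 and 598 scaled FPKM in Δku70 and 127, 177 and 266 in ΔcxrA and was called lower (log2 fold change -1.57).

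The most abundant transcripts of the 2 strains were in part different. In Δku70 the highest annotated gene was POX_d05151, annotated as a hypothetical protein, at 11221, 11623 and 11099 scaled FPKM in Δku70 and 122, 143 and 167 in ΔcxrA. It fell from the top of the list by 6.31 on the log2 scale (SE 0.36, adjusted p = 2.2e-06, limma). POX_a00279 and POX_a00166, of similar abundance and with the same annotation, were at 9101, 8909.5 and 12136 and at 9496, 7946 and 8645 scaled FPKM in Δku70. In ΔcxrA they were at 31.0, 26.7 and 15.2 and at 37.6, 30.3 and 20.2, with log2 fold changes of -8.74 and -8.25. POX_a00825 and POX_c03579 fell less, to 883, 1024 and 964 and to 1346, 1269 and 1063 scaled FPKM (log2 fold changes -3.32 and -2.42). POX_d04900, at 5698, 7270.4 and 7396 scaled FPKM in Δku70 and 3506, 3866 and 4953 in ΔcxrA, was lower in each ΔcxrA library but not called, and its log2 fold change of -0.73 turned to 0.12 under quantile normalization.

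In ΔcxrA the leading annotated transcripts were other genes annotated as hypothetical proteins, a label that genes of known function such as prmt2 and pepA carry as well. POX_g09001 was at 1790.3, 1858 and 1527 scaled FPKM in Δku70 and 7396, 8062 and 8952 in ΔcxrA (log2 fold change 2.24), and POX_f08207 at 439, 491 and 426 scaled FPKM in Δku70 and 8093, 7513 and 6404 in ΔcxrA (log2 fold change 4.02). Both were far above Δku70 in every library. POX_b02060 was at 14.0, 178 and 137 scaled FPKM in Δku70 and 5677, 5731 and 5594 in ΔcxrA, and its Δku70 replicate 1 was far below the other Δku70 libraries while those of ΔcxrA hardly differed (log2 fold change 6.34, SE 0.81). POX_c03783 was at 88.0, 86.7 and 56.6 scaled FPKM in Δku70 and 4085, 4639 and 5649.8 in ΔcxrA (log2 fold change 5.97), and in POX_d05516 the log2 fold change was 3.12.

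The largest fall of a gene above 0 in ΔcxrA was in POX_e06160, a hypothetical protein at 3177, 2623 and 2716 scaled FPKM in Δku70 and 0.931, 1.67 and 0.633 in ΔcxrA. An abundant transcript was thus almost gone in all 3 libraries (log2 fold change -11.33, SE 0.34, adjusted p = 9.2e-08). POX_b03429, at 903, 997 and 1392 scaled FPKM in Δku70 and 2.78, 1.43 and 0.961 in ΔcxrA, and POX_c04214, at 913, 843 and 897 scaled FPKM in Δku70 and 1.97, 1.65 and 1.12 in ΔcxrA, had log2 fold changes of -9.34 and -9.07. Among the genes above 1 scaled FPKM in every Δku70 library, 9 were listed at 0 in every ΔcxrA library. Besides cxrA these included POX_b02587, at 39.7, 101 and 146 scaled FPKM in Δku70, and POX_b02497, at 54.2, 66.3 and 27.1.

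The reverse, genes listed at 0 in every Δku70 library and above 1 scaled FPKM in every ΔcxrA library, was found for 44 genes. The highest was POX_a01078, at 90.6, 112 and 146 scaled FPKM in ΔcxrA. POX_g08587, POX_a00778, POX_a00204 and POX_e07176 had the same pattern, with POX_e07176 at 23.2, 22.2 and 22.8. Among genes detected in both strains, POX_b02614 was at 2.99, 16.9 and 10.9 scaled FPKM in Δku70 and 2289, 2036 and 1688 in ΔcxrA. Its Δku70 libraries varied among themselves, replicate 1 again the lowest, but all were far below the lowest ΔcxrA library (log2 fold change 7.90, SE 0.52, adjusted p = 4.8e-06). POX_g08759 was at 0.263, 0.737 and 0.249 scaled FPKM in Δku70 and 159.7, 161 and 141 in ΔcxrA (log2 fold change 8.34).

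Part of the large changes lay in blocks of adjacent genes. Fungal genes for secondary metabolism are often arranged in such blocks, but most genes of the runs described here are annotated only as hypothetical proteins. The blocks were found by their calls, so the following is a description with no test. Of 9277 tested genes placed in order by the RefSeq table, 2641 were called, 154 of them in 22 runs of at least 5 neighbours with the same direction, 12 lower and 10 higher. Over whole chromosomes the share of genes called lower lay between 12.7% and 15.8%, and the share called higher between 12.7% and 17.8%.

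The longest run held 22 genes on chromosome III, from POX_c04232 to POX_c04253, all lower. Their mean levels were between 30.9 and 928 scaled FPKM in Δku70 and between 0.227 and 38.4 in ΔcxrA, and the median log2 fold change was -7.00. The strains did not overlap in any of the 22. POX_c04248, the most abundant of them, was at 909.7, 759 and 1114 scaled FPKM in Δku70 and 4.48, 4.33 and 3.00 in ΔcxrA (log2 fold change -7.85). POX_c04241, in the middle, had the largest fall, from 466, 395 and 649 scaled FPKM to 1.10, 0.953 and 0. Just outside the run, POX_c04231 and POX_c04254 had log2 fold changes of 0.97 and 0.34, neither of them called, although POX_c04231 was called higher without the scaling, under quantile normalization and without ΔcxrA replicate 3 (1.38, 1.02 and 1.11).

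The run around the deleted gene held 19 genes on chromosome I, from POX_a00746 to POX_a00764, with cxrA next to last. These are abundant transcripts, with a median of 2058 scaled FPKM in Δku70 and 364 in ΔcxrA, and a median log2 fold change of -2.28. On the far side from cxrA the calls did not end sharply, since POX_a00742, POX_a00743 and POX_a00744 were also called lower, with log2 fold changes of -1.54, -2.68 and -1.96, and POX_a00745 between them and the run was not called with all 9 libraries in the fit (log2 fold change -2.06, adjusted p = 0.18, limma), but was with the 6 alone (adjusted p = 0.031). Farther out on that side, beyond genes that were not called, POX_a00738 and POX_a00739 were called lower as well, with log2 fold changes of -5.28 and -4.66. Apart from cxrA itself the log2 fold changes in the run lay between -1.41 and -3.29. POX_a00754 was at 7528, 7169.5 and 4609.6 scaled FPKM in Δku70 and 1897, 1958 and 2053 in ΔcxrA, and POX_a00762, directly before cxrA, at 1032, 1097 and 481 scaled FPKM in Δku70 and 83.5, 89.4 and 87.3 in ΔcxrA (log2 fold change -3.23). POX_a00765, on the other side of POX_a00764, was called higher at a very low level, at 0, 0 and 1.12 scaled FPKM in Δku70 and 4.50, 3.69 and 0.905 in ΔcxrA (log2 fold change 3.50). The call was lost under quantile normalization and without ΔcxrA replicate 1 or 2 or Δku70 replicate 1 or 2, at log2 fold changes between 2.80 and 3.20. A change of the locus by the inserted marker cannot be told apart from loss of the CxrA protein in these neighbours.

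Another run on chromosome III, of 8 genes from POX_c04512 to POX_c04519, includes the transporter gene POX_c04515 and the winged helix gene POX_c04517. Its median log2 fold change was -7.16, and the genes were at 0.178 to 3.02 scaled FPKM in ΔcxrA. POX_c04513 was at 535, 512 and 722 scaled FPKM in Δku70 and 2.59, 1.87 and 1.00 in ΔcxrA, with no overlap. The falls did not end with the run, since beyond 1 gene close to 0 in both strains POX_c04521, POX_c04522 and POX_c04523 were called lower as well, with log2 fold changes of -8.93, -6.81 and -7.55. On its other side lies POX_c04504, at -5.72, with genes between that were not called lower. On chromosome V, 5 genes from POX_e06153 to POX_e06158, among them the winged helix gene POX_e06154, had a median log2 fold change of -6.95. POX_e06156 of this run was at 866, 602 and 611 scaled FPKM in Δku70 and 6.14, 5.83 and 4.50 in ΔcxrA, and POX_e06157 was listed at 0 in every ΔcxrA library.

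The longest run of higher genes was on chromosome VIII, 9 genes from POX_h09434 to POX_h09443, with a median log2 fold change of 5.47. POX_h09441 was at 6.86, 77.1 and 38.4 scaled FPKM in Δku70 and 4743, 3906 and 2491 in ΔcxrA, and POX_h09440 at 12.7, 123 and 112 scaled FPKM in Δku70 and 1519.5, 1456 and 1383 in ΔcxrA. Neither overlapped between strains, and Δku70 replicate 1 was the lowest library in both. POX_h09439, between them and the start, was at 0.178, 1.86 and 2.81 scaled FPKM in Δku70 and 346, 312 and 267 in ΔcxrA (log2 fold change 8.04, SE 0.73). In 8 of the 9 genes the strains did not overlap, the exception being POX_h09434 at the edge, at 0.189, 0 and 0.0830 scaled FPKM in Δku70 and 0.821, 0.187 and 0.825 in ΔcxrA. Its call (log2 fold change 1.84) was lost with either other pseudocount, under quantile normalization, with the 6 libraries alone and without ΔcxrA replicate 1 or 3 or Δku70 replicate 2 or 3, where the log2 fold change lay between 0.45 and 3.18, and without it the run holds 8 genes.

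**Figure D5:**
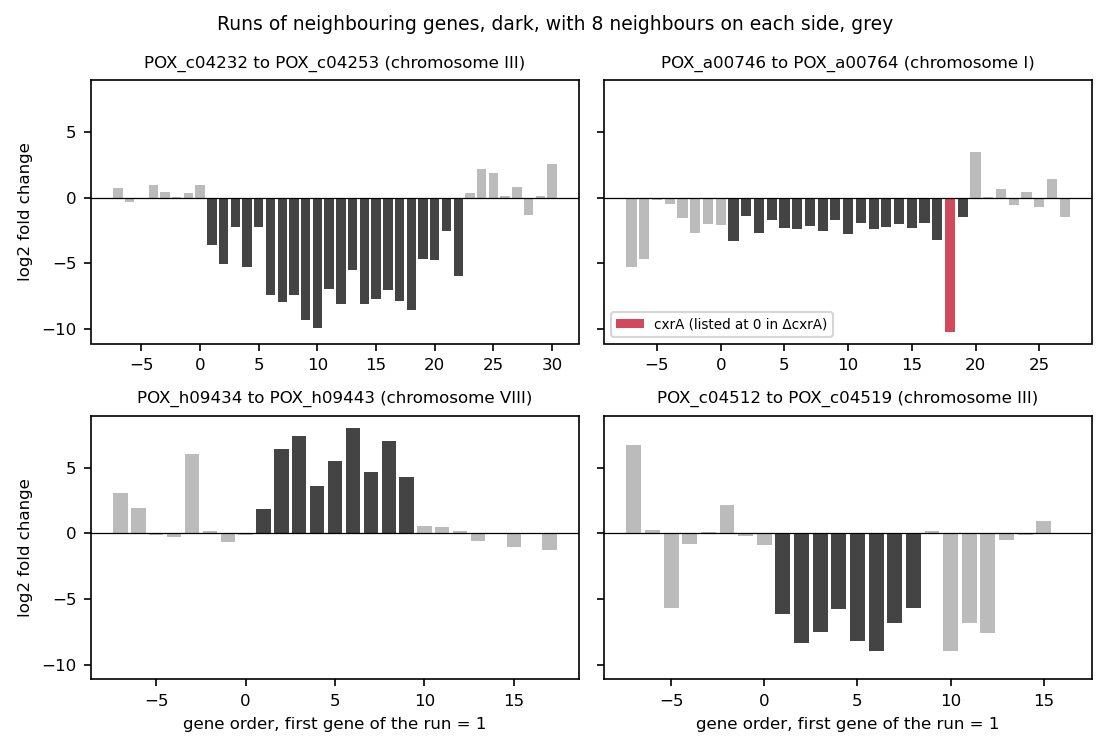
Log2 fold change of ΔcxrA against Δku70 along 4 runs of neighbouring genes. The x axis is gene order with the first gene of the run at 1, dark bars are genes of the run, grey bars the 8 tested neighbours on each side, and the red bar is cxrA, which is listed at 0 in ΔcxrA. The runs on chromosome III reach -9.94 and -8.93, the run around cxrA stays between -1.41 and -3.29 apart from cxrA, and the run on chromosome VIII reaches 8.04.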

How the data were processed

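RNA-sequencing of mycelium covered 9 libraries, of which 6 enter the comparison. The authors cleaned reads with SOAPnuke, mapped them with HISAT2 to the P. oxalicum genome and quantified them with RSEM and Bowtie2, and they deposited FPKM per feature, 1 table for each library; the genome build is not given in the sources used here. The authors called changed genes with DESeq2 on counts, which were not analysed here.

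Each library was divided by its median-of-ratios factor, taken from the 9335 features with a value above 0 in every library. The tables list 11082 features, and 504 of them at 0 throughout were left out. On log2(scaled FPKM + 0.1), limma 3.58.1 under R 4.3.3 (eBayes with trend) fitted strain means over the 9 libraries, with 6 residual and 2.38 prior degrees of freedom, and p-values were adjusted by Benjamini-Hochberg over 10578 features. On simulated data of this size, 179 of 200 features changed by 2 on the log2 scale were called, each with the right sign, beside 10 false calls. The simulation changed far fewer features than were called here and none at the lowest levels. Its noise was log-normal and it had no scaling step, so these rates need not hold for the data. Tables were made with Python 3.11.15, pandas 2.3.3 and numpy 2.4.6. Absolute depth is unknown. Its relative size was read from low FPKM times gene length, which cluster at the worth of 1 fragment and differed by 1.52-fold over the 6 libraries, and no counting interval is given.

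Gene lists came from the protein annotations of the study's supplementary lists of genes changed in ΔcxrA, a shortened text with 1998 of the genes tested, and in Δprmt3; lists by sequence pattern or product name could not be made from the tables used here. Of the identifiers, 9718 are in RefSeq assembly ASM172317v3, used for names, lengths, chromosomes and gene order only, and no sequence was read. Genes were named by a rule: genes the study names, for each list the 4 of highest level and the 2 largest rises and 2 largest falls called without overlap, over all genes the 10 largest rises and falls with a mean of at least 10 scaled FPKM, and the 10 of highest level in each strain. Other genes, most of them in or beside runs of neighbours or among enzymes, were chosen after their values were seen. The comparison, the lists and the tests were chosen with earlier results of these data known. Alternatives were other scalings, pseudocounts and filters, the 6 libraries alone, a replicate block, robust eBayes, leaving out each library, and, added after seeing the data, only annotated genes in the fit.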

Additional observations from a re-analysis of the deposited data

How the results depend on the processing

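The division of calls by direction depended on the scaling. With unscaled FPKM, 2246 annotated genes came out higher and 849 lower in ΔcxrA, and 14 Zn2Cys6 genes lower. Under every other alternative the counts of annotated, polysaccharide enzyme, Zn2Cys6 and sugar transporter genes in each direction stayed within 1.5 times the values reported; the fit with only annotated genes was run for the annotated genes alone. Leaving out 1 library gave 1271 to 1334 annotated genes higher and 1238 to 1326 lower, 12 to 14 enzyme genes higher and 50 to 53 lower, 24 to 27 Zn2Cys6 genes higher and 20 to 24 lower, and 6 to 8 transporter genes higher and 19 to 21 lower. Of 146 called genes tested one by one, 126 were called under all of the 14 alternatives in which they were tested, and 20 were not under at least 1, among them 12 under quantile normalization and 10 with unscaled FPKM. The cause was not tested.

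The signs of some genes that were not called turned. With unscaled FPKM, the log2 fold change was 0.17 for POX_a00957, 0.0022 for POX_b01970, 0.13 for POX_c04019, 0.028 for POX_d04883, 0.084 for POX_d06099 and 0.13 for POX_e06638. Under quantile normalization, it was 0.078 for POX_a00613, 0.031 for POX_b01970, 0.45 for POX_c04019, -0.54 for POX_c04254, 0.073 for POX_d04883, 0.12 for POX_d04900 and 0.51 for POX_e06638. Leaving out 1 library gave -0.51 to 0.017 for POX_d06099 and -0.041 to 1.06 for POX_c04254.

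The replicate numbers did not pair the libraries. Correlations of the deviations from the strain means between libraries of the same number were -0.069, 0.0096 and 0.021, and not every library correlated best with its own number. With the number as a replicate block, 1343 annotated genes were called higher and 1307 lower, 13 enzyme genes higher and 53 lower, 27 Zn2Cys6 genes higher and 24 lower, and 8 transporter genes higher and 20 lower.

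Without read counts, no counting error can be given for low values, and a gene listed at 0 is not shown to be silent. All statements rest on 3 libraries a strain and 1 time point.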
